A study of Mus musculus with 18 samples.

Results

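Ms4a6b, Ms4a6c, Ms4a6d, Ms4a7, Ms4a4a and Ms4a4c are 6 genes of the myeloid part of the mouse Ms4a cluster, taken by symbol from the 24421 gene symbols in the count files. They were chosen because 2 of them, Ms4a6c and Ms4a6d, were higher after immune complexes (IC) in every subset of synovial macrophages. The levels with and without IC thus picked the genes, and the change with IC is given below as a description. Counts of members passing the threshold with IC are printed beside the shares of all genes, but nothing is read from them. For the members, tests are read only for differences between subsets under 1 treatment. A row was found for 5 of the 6 genes, and all 5 passed the filter on low counts. Ms4a4c passed through its MHCII+ libraries, since its LYVE1+CX3CR1+ libraries held 0 to 5 counts, and its difference from that subset is therefore described with no test. Ms4a4a was not among the rows and has no value here.

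The macrophages were sorted from digested synovium of adult C57BL/6 mice that carried no engineered allele, and their total RNA was sequenced in bulk. The 3 sorted subsets were LYVE1+CX3CR1+ macrophages, which form the synovial lining, and MHCII+CD11c- and MHCII+CD11c+ macrophages, which lie in the tissue beneath it. Each subset came from untreated mice and from mice culled 8 h after an intravenous injection of IC, here ovalbumin bound by polyclonal antibodies against it. The 6 groups held 3 libraries each, 18 in all, and each library pooled the cells of 3 mice, so that the spread between libraries is that between pools.

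Library totals ran from 245903 to 2172358 counts. The smallest were replicates 2 and 1 of the MHCII+CD11c- IC group, with 245903 and 381217 counts, in which a single count was worth 3.77 and 2.61 CPM (counts scaled to a common library size with TMM factors). The sort genes followed the labels. Without treatment Lyve1 was at 2171 to 2563 CPM in the LYVE1+CX3CR1+ libraries and at 329 to 882 CPM in the MHCII+ ones, H2-Ab1 was at 20.1 to 20.5 CPM against 4548 to 7825 CPM, and Itgax, which encodes CD11c, was at 240 to 304 CPM in the MHCII+CD11c+ libraries and at 0 to 13.3 CPM elsewhere. After IC, Lyve1 was at 1001 to 1232 CPM in the MHCII+CD11c+ libraries. In the MHCII+CD11c- ones it was at 516 to 2290 CPM, which overlapped the untreated range of 702 to 882 CPM. Itgax was at 31.0 to 70.6 CPM in MHCII+CD11c- libraries after IC. H2-Ab1 was at 2670 to 3088 CPM there, below the untreated range of 4548 to 4745 CPM. In MHCII+CD11c+ libraries it was at 5525 to 6952 CPM after IC, and in LYVE1+CX3CR1+ ones at 22.0 to 44.3 CPM. The part of these shifts in the values below was not tested. All 9 macrophage markers were above 3 counts in at least 1 library of every group.

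MS4A proteins cross the cell membrane several times and sit beside receptors, whose signalling they modulate. The family includes MS4A1, better known as the B cell antigen CD20, and MS4A2, the beta chain of the high-affinity IgE receptor of mast cells and basophils. Tissue macrophages and monocytes use another part of the cluster. Ms4a7 is commonly used as a marker of resident macrophages, Ms4a4c and Ms4a6c are also transcribed by blood monocytes, MS4A4A has been described with the beta-glucan receptor dectin-1, and MS4A6D with VSIG4 in the restraint of the NLRP3 inflammasome.

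The 6 genes lie within 284 kb of mouse chromosome 19 (GRCm38). From the lower coordinate upward, in the RefSeq annotation, they are Ms4a7 (chr19:11321039-11336146, minus strand), Ms4a4a (chr19:11375488-11392915, plus strand), Ms4a4c (chr19:11404717-11427246, plus strand), Ms4a6c (chr19:11469353-11487182, plus strand), Ms4a6b (chr19:11518559-11530403, plus strand) and Ms4a6d (chr19:11586606-11604804, minus strand). Ms4a4b lies between Ms4a4c and Ms4a6c, and Ms4a4d between Ms4a6b and Ms4a6d. The coding sequences of Ms4a6b and Ms4a6d were identical at 80.1% of aligned positions, those of Ms4a6b and Ms4a6c at 74.7%, and those of Ms4a6c and Ms4a6d at 67.2%. Ms4a7 and Ms4a4c matched each of the 3 Ms4a6 genes at 48.8% to 52.4% of positions.

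The promoters of Ms4a6c and Ms4a6b, read from 250 bases before to 50 bases after the start site in RefSeq (GRCm38.p6), shared an unbroken run of 48 bases. The stretches around it are shown because both genes had higher means after IC in each subset. That also holds for Ms4a6d, which had no promoter entry and could not be compared. It holds too for Ms4a4c, whose promoter entry shared no run of at least 15 bases with that of another member. That entry, chr19:11407411-11407710, lies inside the gene, downstream of the gene start given above, chr19:11404717. The bases at that gene start were thus not compared. The stretches shown are at chr19:11469299-11469396 for Ms4a6c and chr19:11518421-11518518 for Ms4a6b, 5′ to 3′ on the plus strand, and capitals mark the shared run.
Ms4a6c: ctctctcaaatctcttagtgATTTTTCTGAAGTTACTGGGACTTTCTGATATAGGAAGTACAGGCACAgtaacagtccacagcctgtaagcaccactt
Ms4a6b: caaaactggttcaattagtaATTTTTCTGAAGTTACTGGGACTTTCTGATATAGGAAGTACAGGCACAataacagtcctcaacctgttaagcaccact

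The run starts 49 bases before the start site of the Ms4a6c promoter entry and 118 bases before that of Ms4a6b. For Ms4a6c this site lies downstream of the gene start given above, chr19:11469353, which falls inside the run. The shared run is a likeness of sequence and says nothing of binding.

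Ms4a6d had the largest difference between treatments of any member in MHCII+CD11c+ macrophages, and in LYVE1+CX3CR1+ macrophages the largest apart from Ms4a4c, which was near 0 counts there. In LYVE1+CX3CR1+ macrophages its level was 103, 116 and 115 CPM in the untreated replicates and 494, 445 and 310 CPM after IC. In MHCII+CD11c- macrophages it was 63.9, 67.2 and 77.6 CPM untreated and 350, 395 and 242 CPM after IC. In MHCII+CD11c+ macrophages it was 58.3, 59.8 and 59.3 CPM untreated and 250, 215 and 149 CPM after IC. The untreated and IC libraries did not overlap in any subset. Of all genes tested, 9.60%, 5.68% and 8.51% were apart in the same direction in these subsets, and this contrast chose the genes. The log2 difference, IC minus untreated, was 1.90 ± 0.21 (SE, n = 3 against 3) in LYVE1+CX3CR1+, 2.21 ± 0.23 for the MHCII+CD11c- subset and 1.77 ± 0.22 for the MHCII+CD11c+ subset, or 3.73-, 4.63- and 3.42-fold.

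Ms4a6c showed the same order of treatments with smaller differences. Its levels were 123, 137 and 145 CPM in untreated LYVE1+CX3CR1+ macrophages and 359, 326 and 233 CPM after IC. In the MHCII+CD11c- subset they were 112, 126 and 113 CPM and then 395, 339 and 220 CPM. In the MHCII+CD11c+ subset they were 70.4, 78.9 and 115 CPM and then 196, 237 and 196 CPM. Again the IC libraries all lay above the untreated ones in each subset, beside the shares of all genes given for Ms4a6d. The log2 differences were 1.18 ± 0.21, 1.42 ± 0.23 and 1.25 ± 0.22 (SE), or 2.27-, 2.67- and 2.37-fold.

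Ms4a6b, the third gene of the Ms4a6 group, stood just outside the rule. LYVE1+CX3CR1+ libraries had 76.8, 122 and 116 CPM untreated and 250, 198 and 154 CPM after IC. MHCII+CD11c- libraries had 68.6, 97.8 and 78.7 CPM and then 136, 207 and 125 CPM. MHCII+CD11c+ libraries had 36.8, 73.0 and 44.8 CPM and then 111, 93.6 and 70.7 CPM. The treatments were apart in the first 2 subsets and overlapped in MHCII+CD11c+ macrophages, where the lowest IC library lay below the highest untreated one. Its log2 differences, 0.93 ± 0.25, 0.89 ± 0.28 and 0.82 ± 0.27 (SE), compare with 1.18 for the smallest difference of Ms4a6c, the nearest member inside the rule.

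Ms4a7 differed little between treatments. It was at 72.1, 78.4 and 51.2 CPM in untreated LYVE1+CX3CR1+ macrophages and at 68.8, 80.7 and 65.8 CPM after IC. The MHCII+CD11c- values were 24.4, 55.0 and 56.2 CPM and then 36.6, 48.9 and 29.0 CPM, and the MHCII+CD11c+ values were 27.8, 35.5 and 25.1 CPM and then 32.4, 22.0 and 30.5 CPM. The treatments overlapped in every subset, and the log2 differences were 0.10 ± 0.27, -0.33 ± 0.34 and -0.07 ± 0.30 (SE). The intervals around them reached 0.65, 0.36 and 0.56 upward and -0.45, -1.02 and -0.69 downward (95%).

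Ms4a4c was a gene of the MHCII+ subsets. The untreated LYVE1+CX3CR1+ libraries held 0, 1 and 0 counts and the IC libraries 5, 4 and 3 counts, of 1509070 to 2047260 counts each. In MHCII+CD11c- macrophages its level was 8.14, 9.78 and 11.2 CPM untreated and 60.1, 132 and 51.1 CPM after IC, and the highest of these was the smallest library, with 35 counts. In MHCII+CD11c+ macrophages it was 17.3, 14.5 and 24.1 CPM untreated and 54.0, 23.6 and 37.2 CPM after IC, so the treatments overlapped there and were apart in MHCII+CD11c-. The log2 difference was 2.98 ± 0.47 (SE) for MHCII+CD11c- and 0.99 ± 0.41 for MHCII+CD11c+ libraries. The summed counts of the LYVE1+CX3CR1+ libraries, 12 after IC and 1 without, correspond to a 10.3-fold ratio with an exact 95% interval from counting error of 1.52 to 440.

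**Figure D1:**
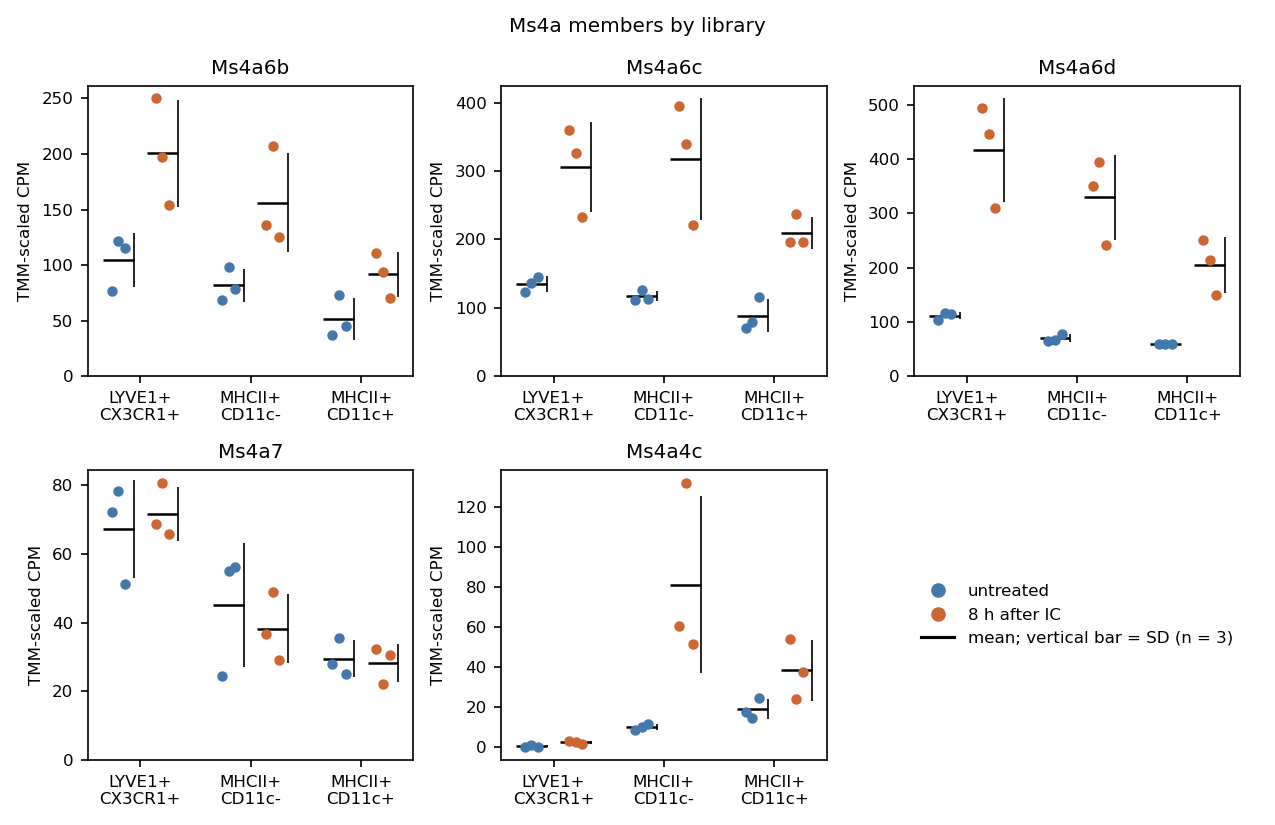
Level of each member (TMM-scaled CPM, y axis) in the 18 libraries by subset (x axis), with points for libraries, horizontal lines for means and vertical bars for the SD (n = 3); blue is untreated and orange is 8 h after IC. The IC libraries lie above the untreated ones in all 3 subsets for Ms4a6c and Ms4a6d and overlap them in all 3 for Ms4a7, and Ms4a4c stays below 3 CPM in LYVE1+CX3CR1+ libraries.

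In counts of calls on the contrast that chose the genes, 2 of the 5 members passed the threshold upward in LYVE1+CX3CR1+ macrophages, where 0.246% of all genes tested did so. In MHCII+CD11c- macrophages 3 did, beside 0.550% of all genes, and in MHCII+CD11c+ macrophages 2 did, beside 0.483%. Since the genes were picked on this contrast, these counts cannot test whether the members were called more often than other genes. The median log2 difference of the 5 members was 1.18, 1.42 and 0.99 in these subsets, beside -0.02, -0.01 and -0.01 for all 10550 genes tested. In LYVE1+CX3CR1+ macrophages that median is the value of Ms4a6c, whether Ms4a4c enters by its fitted value or by the ratio of its counts. Nothing is read from these counts or medians, since the members were picked on this contrast. The 3 comparisons with IC use different libraries, and whether the change differed between subsets was not tested. More RNA per cell and a changed mix of cells cannot be told apart in bulk libraries.

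Markers of other cells moved with IC in the same libraries. The summed level of the 7 measured neutrophil markers was 578 to 1379 CPM in untreated MHCII+CD11c- libraries and 1336 to 3267 CPM after IC, 20.4 to 486 and 887 to 1991 CPM in the MHCII+CD11c+ libraries, and 13.2 to 17.2 and 19.2 to 144 CPM in the LYVE1+CX3CR1+ ones. The 9 monocyte markers summed to 2770 to 3339 and 3332 to 3836 CPM in MHCII+CD11c-, 2240 to 2864 and 2501 to 3396 CPM in MHCII+CD11c+, and 3021 to 3682 and 3489 to 3958 CPM in LYVE1+CX3CR1+ libraries, most of it F13a1, which is also a macrophage gene. Ly6c2, which marks classical monocytes, was at 7.32 ± 4.97 and 24.1 ± 1.78 CPM (SD, n = 3) in MHCII+CD11c- macrophages. It was at 2.44 ± 2.08 and 14.7 ± 1.13 CPM in MHCII+CD11c+, and at 0 CPM and 0 to 2.40 CPM in LYVE1+CX3CR1+ macrophages. Ccr2, from the same list, had a lower mean after IC in each subset. It was at 566 ± 37.2 and 393 ± 201 CPM in MHCII+CD11c- macrophages. In MHCII+CD11c+ macrophages it was at 776 ± 4.98 and 562 ± 97.7 CPM. In LYVE1+CX3CR1+ libraries it was at 23.2 to 31.2 and 15.2 to 32.7 CPM. Of the 9 monocyte markers, 8, 8 and 7 had a positive log2 difference with IC in MHCII+CD11c-, MHCII+CD11c+ and LYVE1+CX3CR1+ macrophages. In the untreated LYVE1+CX3CR1+ group 4 monocyte and 2 neutrophil markers were at 0 in every library. Over all groups, markers of T and NK cells summed to 0 to 4.65 CPM, of dendritic cells to 1.05 to 152 CPM, of endothelial cells to 1.13 to 89.5 CPM and of fibroblasts to 2.61 to 635 CPM. The part of other cells in the values of the members was not tested.

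Without treatment, LYVE1+CX3CR1+ macrophages held more of 4 members than MHCII+CD11c+ macrophages and far less of Ms4a4c. These 4 of 4 members passed the test (edgeR's quasi-likelihood test, Benjamini-Hochberg adjustment over 10550 genes), as did 21.8% of all genes tested. Ms4a7 was at 67.2 ± 14.3 against 29.5 ± 5.40 CPM (SD, n = 3 each), a log2 difference of 1.19 ± 0.28 (SE, adjusted p = 0.00240). Ms4a6b was at 105 ± 24.3 against 51.5 ± 19.0 CPM, a difference of 1.04 ± 0.26 (adjusted p = 0.00423). Ms4a6d was at 111 ± 7.22 against 59.2 ± 0.767 CPM, a difference of 0.91 ± 0.21 (adjusted p = 0.00216). The libraries of the subsets did not overlap for any of the 4. Of all genes tested, 19.8% were apart in the same direction, higher in LYVE1+CX3CR1+ macrophages. For Ms4a6c, at 135 ± 11.5 against 88.2 ± 23.8 CPM, the difference of 0.61 ± 0.21 (adjusted p = 0.0415) lost its call when any 1 of the 6 libraries other than MHCII+CD11c+ replicate 3 was left out (adjusted p = 0.0552 to 0.197). Ms4a4c was at 18.6 ± 4.95 CPM in the MHCII+CD11c+ libraries (105 counts in all) and held 1 count in all LYVE1+CX3CR1+ libraries, a ratio of 94.3 with an exact 95% interval from counting error of 16.6 to 3759.

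Against untreated MHCII+CD11c- macrophages, 1 of the other 4 members passed the test, beside 11.4% of all genes. Ms4a4c had 1 count in the LYVE1+CX3CR1+ libraries against 26 counts and 9.72 ± 1.55 CPM, a ratio of 48.3 with an exact 95% interval from counting error of 7.94 to 1980. Ms4a6d was higher in LYVE1+CX3CR1+ macrophages, at 111 ± 7.22 against 69.6 ± 7.15 CPM, a log2 difference of 0.68 ± 0.22 (SE, adjusted p = 0.0479 by edgeR). Its call was lost with any 1 of the 6 libraries left out (adjusted p = 0.0578 to 0.145), and with DESeq2's size factors. Ms4a6c, Ms4a6b and Ms4a7 did not pass, with log2 differences of 0.21 (95% interval -0.24 to 0.66), 0.36 (-0.18 to 0.91) and 0.57 (-0.02 to 1.15).

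Without treatment, 0 of 5 passed edgeR's test between MHCII+CD11c+ and MHCII+CD11c- macrophages, 2 had an unadjusted p under 0.05 and 0 passed with DESeq2, while 3.49% of all genes tested passed edgeR's test. The log2 differences, MHCII+CD11c+ minus MHCII+CD11c-, were -0.67 (95% interval -1.24 to -0.11) for Ms4a6b, -0.63 (-1.24 to -0.01) for Ms4a7, -0.40 (-0.86 to 0.05) for Ms4a6c, -0.24 (-0.71 to 0.23) for Ms4a6d and 0.94 (-0.03 to 1.90) for Ms4a4c. Ms4a4c had the opposite sign from the others, and its 3 MHCII+CD11c+ libraries lay above the 3 MHCII+CD11c- ones, without passing the threshold. The libraries were apart in this direction for 12.3% of all genes tested.

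After IC, LYVE1+CX3CR1+ macrophages again held more Ms4a7, Ms4a6b and Ms4a6d than MHCII+CD11c+ macrophages. These 3 of the 4 members other than Ms4a4c passed, beside 19.7% of all genes. Ms4a7 was at 71.7 ± 7.86 against 28.3 ± 5.52 CPM, a log2 difference of 1.35 ± 0.29 (SE, adjusted p = 0.00122 by edgeR). Ms4a6b was at 201 ± 48.4 against 91.8 ± 20.3 CPM, a difference of 1.15 ± 0.26 (adjusted p = 0.00163 by edgeR). Ms4a6d was at 416 ± 95.5 against 205 ± 51.1 CPM, a difference of 1.04 ± 0.20 (adjusted p = 4.16e-04 by edgeR). Ms4a4c was at 2.12 ± 0.690 against 38.2 ± 15.2 CPM, with 12 against 126 counts, a ratio of 17.0 with an exact 95% interval from counting error of 9.38 to 33.7. Ms4a6c, at 306 ± 65.5 against 210 ± 23.5 CPM, did not pass (difference 0.54, 95% interval 0.12 to 0.97, adjusted p = 0.0676), but it passed without LYVE1+CX3CR1+ IC replicate 3 (adjusted p = 0.0266) and under 4 of 7 other settings.

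Against MHCII+CD11c- macrophages after IC, 1 of the 4 members other than Ms4a4c passed the test, beside 9.77% of all genes. Ms4a4c was in LYVE1+CX3CR1+ libraries at 2.12 ± 0.690 against 81.0 ± 44.2 CPM with 12 against 109 counts, a ratio of 31.7 with an exact 95% interval from counting error of 17.4 to 63.3. Ms4a7 was higher in LYVE1+CX3CR1+ macrophages, at 65.8 to 80.7 against 29.0 to 48.9 CPM (n = 3 each), a log2 difference of 0.99 ± 0.32 (SE, adjusted p = 0.0478 by edgeR). Its call was lost when any 1 of the 6 libraries other than MHCII+CD11c- IC replicate 2 was left out (adjusted p = 0.0689 to 0.185), with DESeq2's size factors (adjusted p = 0.0564) and in a fit to only those 6 libraries (adjusted p = 0.0989). The log2 differences of the others were -0.03 (95% interval -0.47 to 0.41) for Ms4a6c, 0.40 (-0.14 to 0.95) for Ms4a6b and 0.36 (-0.06 to 0.79) for Ms4a6d.

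Between the MHCII+ subsets after IC, 0 of 5 members passed edgeR's test, 4 had an unadjusted p under 0.05 and 1, Ms4a6d, passed with DESeq2 (adjusted p = 0.0467), while 2.84% of all genes tested passed edgeR's test. All 5 had lower means in MHCII+CD11c+ macrophages, by 0.36 for Ms4a7 to 1.05 for Ms4a4c on the log2 scale. Without MHCII+CD11c- IC replicate 3, Ms4a6d passed edgeR's test too, with a difference of -0.87 (adjusted p = 0.0323). Ms4a6d and Ms4a6b also passed in an edgeR fit that blocks on the replicate number (adjusted p = 0.0137 and 0.0448).

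**Figure D2:**
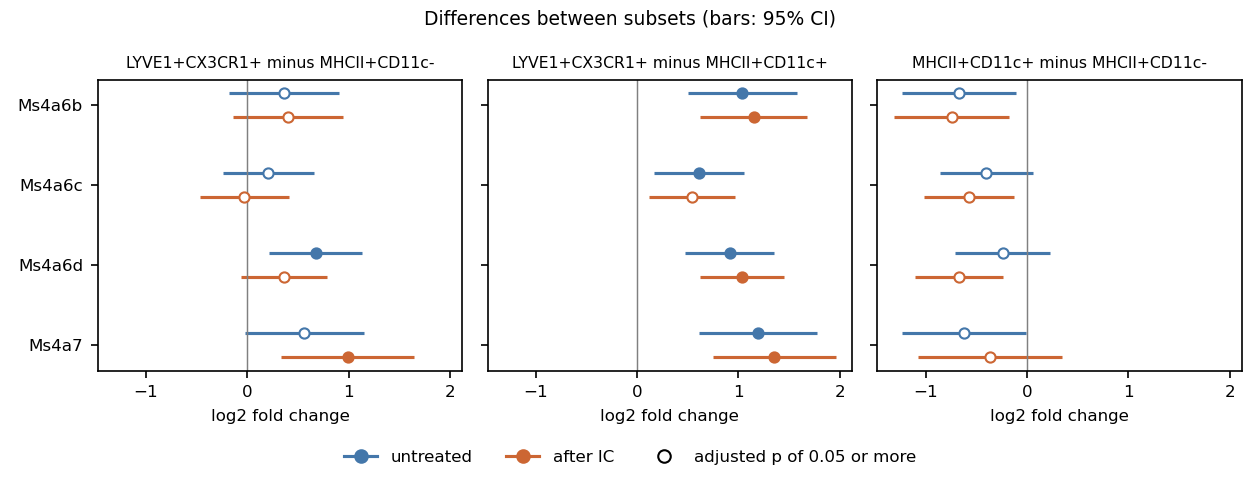
Log2 fold changes between subsets (x axis) for 4 members (y axis), with 95% intervals from the edgeR fit; blue is untreated, orange is after IC, and filled points have an adjusted p below 0.05. Ms4a6b, Ms4a6d and Ms4a7 stand to the right of 0 against MHCII+CD11c+ macrophages under both treatments; Ms4a4c, at 0 to 1 count in the untreated LYVE1+CX3CR1+ libraries, is not drawn.

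The order of the subsets was thus LYVE1+CX3CR1+, MHCII+CD11c-, MHCII+CD11c+ for the means of Ms4a6b, Ms4a6d and Ms4a7 under both treatments, and edgeR's test passed between the first and the last. Between the MHCII+ subsets it did not, apart from the settings named for Ms4a6d and Ms4a6b. For Ms4a6c the order was the same without treatment, and after IC the means of the first 2 were 306 and 318 CPM. For Ms4a4c the order was MHCII+CD11c+, MHCII+CD11c-, LYVE1+CX3CR1+ without treatment, and MHCII+CD11c- came first after IC. Higher levels in LYVE1+CX3CR1+ than in MHCII+CD11c+ macrophages were not particular to the members. Among the 9 macrophage markers, 7 were called higher and 1 lower without treatment, and 7 higher and 0 lower after IC. Their median log2 differences were 0.91 and 0.93, and 9.48% and 8.21% of all genes were called higher.

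Per kilobase of exon, which allows genes to be compared, Ms4a6c and Ms4a6d were the highest members in each group. In untreated LYVE1+CX3CR1+ macrophages the levels were 73.3 ± 6.23 CPM per kb for Ms4a6c, 72.5 ± 4.70 for Ms4a6d, 39.1 ± 9.08 for Ms4a6b and 38.8 ± 8.23 for Ms4a7 (SD, n = 3). Neither pair of neighbours, Ms4a6c and Ms4a6d or Ms4a6b and Ms4a7, was apart by more than its SD. After IC they were 166 ± 35.6 for Ms4a6c, 271 ± 62.2 for Ms4a6d, 74.8 ± 18.1 for Ms4a6b and 41.4 ± 4.54 for Ms4a7. In the MHCII+CD11c- subset Ms4a6c and Ms4a6d stood at 63.5 ± 4.23 and 45.3 ± 4.65 CPM per kb untreated and at 173 ± 48.4 and 214 ± 51.2 after IC. In the MHCII+CD11c+ subset they stood at 47.9 ± 12.9 and 38.5 ± 0.499 and then at 114 ± 12.8 and 133 ± 33.3. Ms4a4c moved from 5.55 ± 0.885 to 46.3 ± 25.3 CPM per kb in MHCII+CD11c- macrophages, where it passed the mean of Ms4a7, at 22.1 ± 5.80. With the length of the longest transcript in place of all exons, the untreated LYVE1+CX3CR1+ order of Ms4a6c and Ms4a6d turned, to 73.3 and 78.6 CPM per kb.

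The ratio of Ms4a6d to Ms4a6c counts needs neither length nor scaling when a gene pair is followed across libraries. It was below 1 in all 9 untreated libraries and above 1 in 6 of the 9 IC libraries. In LYVE1+CX3CR1+ macrophages it was 0.84, 0.85 and 0.79 untreated and 1.38, 1.37 and 1.33 after IC, with means of 0.83 ± 0.03 and 1.36 ± 0.02 (SD, n = 3). In MHCII+CD11c- macrophages it was 0.57, 0.53 and 0.68 and then 0.89, 1.17 and 1.10. In MHCII+CD11c+ macrophages it was 0.83, 0.76 and 0.51 and then 1.28, 0.91 and 0.76. The treatments overlapped in the last subset only, and the values describe the contrast on which the genes were chosen.

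**Figure D3:**
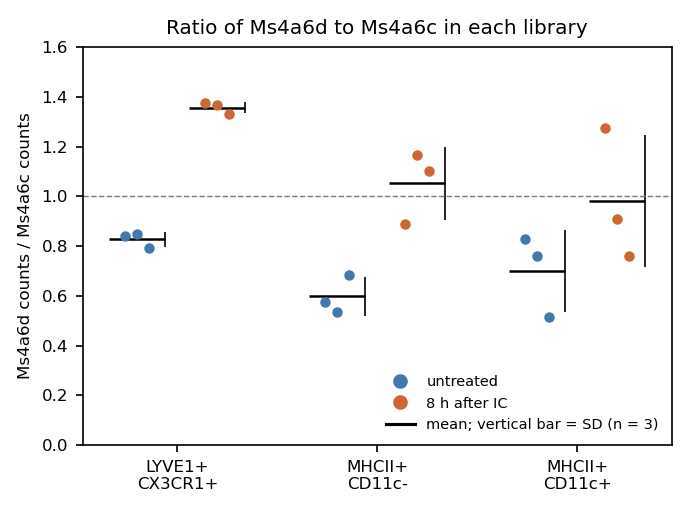
Ratio of Ms4a6d to Ms4a6c counts (y axis) in each library by subset (x axis), untreated (blue) and 8 h after IC (orange), with means (horizontal lines) and SD (vertical bars, n = 3); the dashed line marks equal counts. No untreated library and 6 of the 9 IC libraries lie above 1.

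Reads that match more than 1 gene could blur the members only in part. Of the 50-base windows of the longest protein-coding transcript, 5.89% of Ms4a6b, 2.92% of Ms4a6d and 8.48% of Ms4a4c were found in another gene, for Ms4a4c mostly in Ms4a4b, and 0 of the 1527 windows of Ms4a7. Of 100-base windows, none of Ms4a6b, Ms4a6d or Ms4a7 and 1.72% of Ms4a4c were shared, and the sequenced reads were longer than that. Ms4a6c is the exception, since the transcript BE692007 on the opposite strand covers 51.3% of its 100-base windows. That transcript is not among the rows, and the strand setting of the counting is not given in the sources used here, so the counts of Ms4a6c may include antisense reads. Gm5692 and Gm19261 overlap the spans of Ms4a4c and Ms4a6b on the opposite strand.

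Across the 18 libraries, Ms4a6c and Ms4a6d had a Pearson correlation of 0.95 (log2 CPM), and of 0.62 once the group means were taken off. Ms4a6b stood at 0.86 with Ms4a6d and at 0.83 with Ms4a6c, and at 0.67 and 0.39 without the group means. Ms4a7 and Ms4a4c stood at -0.66 with each other, and at 0.53 without the group means, so that the sign turned. These values describe 18 libraries that share 6 groups, and the treatment that chose the genes enters them. Among 8783 other genes, the one most like Ms4a6d was Msr1, a scavenger receptor of macrophages (r = 0.91), followed by Ctsl, the lysosomal protease cathepsin L (0.89), and Mylip, a ligase that degrades the LDL receptor (0.89). Msr1 also came first for Ms4a6b (0.90), before Fam213b (0.88) and Cd63, a tetraspanin of lysosomes (0.86). For Ms4a6c the closest were Il4ra, the alpha chain of the interleukin-4 receptor (0.89), Man2a1 (0.88) and Mylip (0.88). Ms4a7 was closest to Cd36, a scavenger receptor for lipids (0.90), 2010111I01Rik (0.89) and Maoa, which oxidises monoamines (0.89). Ms4a4c was closest to Rnf149 (0.94), Sdc4, a cell surface proteoglycan (0.93), and Isg15, an interferon-induced protein (0.93). With Spearman's correlation at least 1 of the 3 genes stayed for each member, and the closest became Mylip for Ms4a6c (0.94), Nr1h3 for Ms4a6d (0.95) and Mtfr1 for Ms4a7 (0.87).

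Most other genes of the cluster were at or near 0 counts. Of 19 other Ms4a genes and relatives looked for, 13 had a row, 6 of these were at 0 counts in all 18 libraries and 5 passed the filter. Ms4a4d, between Ms4a6b and Ms4a6d, was among those at 0. Ms4a4b, the T cell gene between Ms4a4c and Ms4a6c, held 15 counts in all, and Ms4a3, a gene of granulocyte and monocyte progenitors at the far end, held 4. The members that were transcribed thus had neighbours that were at or near 0 in the same libraries.

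**Figure D4:**
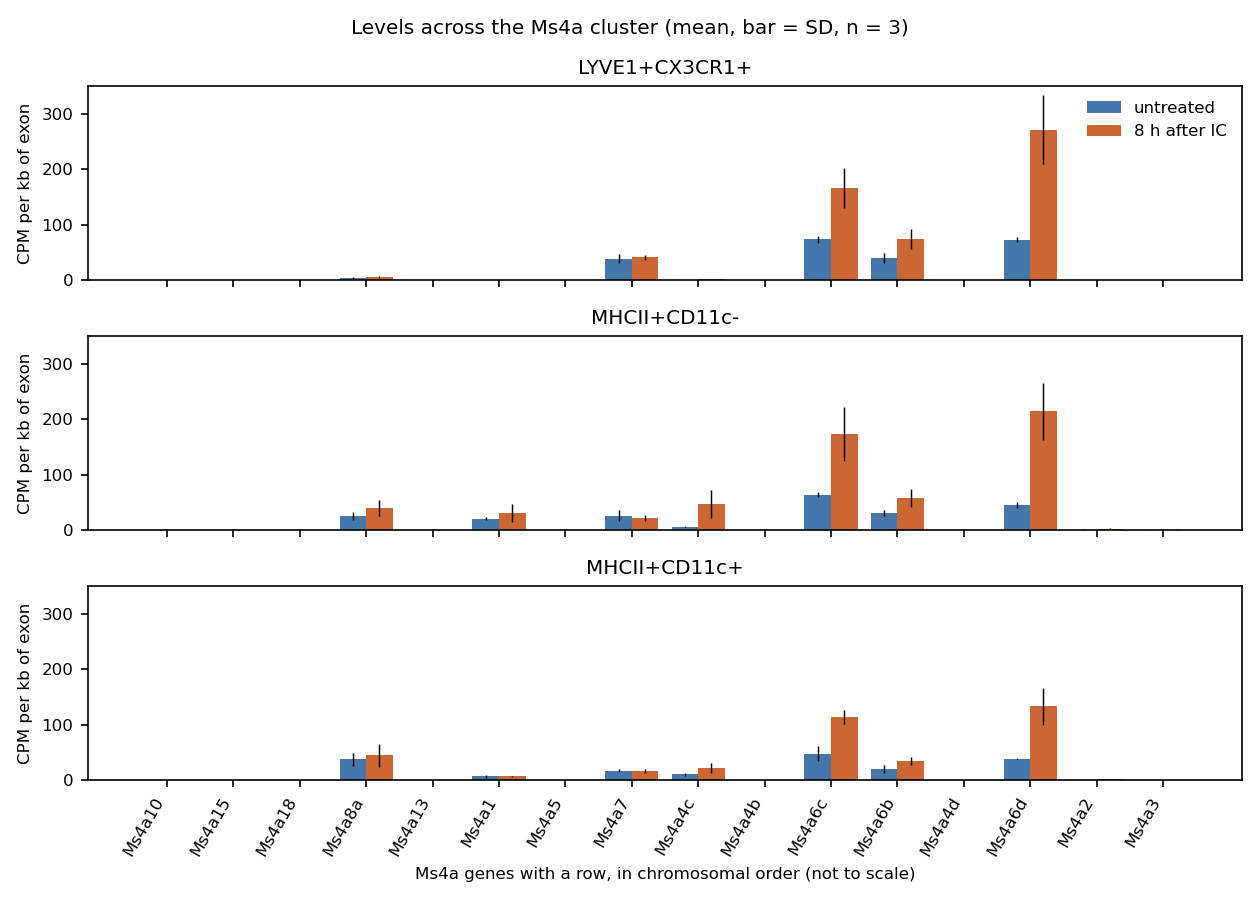
Mean level (CPM per kb of exon, y axis) of the Ms4a genes with a row, in chromosomal order (x axis, not to scale), in each subset; blue bars are untreated, orange bars are 8 h after IC, and error bars show the SD (n = 3). The tallest bars are Ms4a6d after IC, at 271, 214 and 133 CPM per kb in the 3 subsets, while Ms4a4d between it and Ms4a6b is at 0.

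Of the 5 measured relatives, Ms4a1, Ms4a2 and Ms4a8a had few or no counts in LYVE1+CX3CR1+ libraries and passed the filter through the MHCII+ ones, so their differences from that subset are given as levels. Tmem176a and Tmem176b, relatives of the family found in dendritic cells and monocytes, were lower in untreated LYVE1+CX3CR1+ macrophages than in either MHCII+ subset, where 7.12% and 12.4% of all genes were called lower. Tmem176a was at 50.6 ± 7.83 CPM in LYVE1+CX3CR1+, 135 ± 16.9 CPM in MHCII+CD11c- and 192 ± 6.37 CPM in MHCII+CD11c+ libraries (SD, n = 3), with adjusted p = 8.32e-04 and 4.19e-06 by edgeR. Tmem176b was at 326 ± 20.5, 535 ± 54.4 and 559 ± 37.0 CPM (adjusted p = 0.00168 and 2.30e-04 by edgeR). After IC, where 6.45% and 11.5% of all genes were called lower, Tmem176a passed against both subsets and Tmem176b did not (adjusted p = 0.211 and 0.0848 by edgeR). Ms4a8a, reported in alternatively activated macrophages, was at 4.06 ± 1.93, 27.5 ± 7.76 and 40.5 ± 12.9 CPM without treatment. Ms4a1 held 1 count in the untreated and 0 counts in the IC LYVE1+CX3CR1+ libraries, and was at 64.0 ± 9.38 CPM in untreated MHCII+CD11c- and 20.9 ± 6.92 CPM in untreated MHCII+CD11c+ libraries. It moved with the 7 B cell markers, which summed to 170 to 281 CPM, 58.3 to 89.2 CPM and 0 to 2.51 CPM in untreated MHCII+CD11c-, MHCII+CD11c+ and LYVE1+CX3CR1+ libraries, all 7 of them at 3 counts or fewer in every library of the last. Ms4a2 held 0 to 1 count a library in LYVE1+CX3CR1+ and 1 to 13 counts in MHCII+CD11c+ macrophages after IC. Mast cell markers summed to 6.11 to 214 CPM in untreated and 115 to 478 CPM in IC MHCII+CD11c- libraries, to 6.30 to 82.2 and 44.7 to 267 CPM in MHCII+CD11c+ ones, and to 0 to 52.7 and 0 to 31.7 CPM in LYVE1+CX3CR1+ ones. Between untreated and IC libraries, 0 of the 5 passed edgeR's or DESeq2's test in any subset, with 0, 1 and 2 at an unadjusted p under 0.05 in LYVE1+CX3CR1+, MHCII+CD11c- and MHCII+CD11c+ macrophages.

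Of 9 genes described as partners of MS4A proteins or as signalling with those partners, 8 were tested. Vsig4, a complement receptor of resident macrophages, was at 1543 ± 244 CPM in untreated LYVE1+CX3CR1+, 254 ± 43.4 CPM in MHCII+CD11c- and 49.7 ± 16.7 CPM in MHCII+CD11c+ libraries (SD, n = 3). Trem2, a lipid-sensing receptor, had the same order, at 273 ± 29.1, 104 ± 13.1 and 43.0 ± 11.9 CPM. Both differed between all 3 pairs of subsets, without treatment and after IC, and this was also the order of the means of Ms4a6b, Ms4a6d and Ms4a7. Without treatment, LYVE1+CX3CR1+ macrophages differed in 5 of the 8 from each MHCII+ subset, beside 11.4% (MHCII+CD11c-) and 21.8% of all genes. The MHCII+ subsets differed in 2, beside 3.49%. After IC these counts were 3, 4 and 2, beside 9.77%, 19.7% and 2.84%. Syk had the opposite order without treatment, at 326 ± 34.5, 476 ± 18.5 and 523 ± 5.57 CPM, and was called lower in LYVE1+CX3CR1+ than in either other. Nlrp3, the inflammasome sensor, was lower in untreated LYVE1+CX3CR1+ than in MHCII+CD11c- macrophages, at 85.4 ± 29.6 against 178 ± 25.2 CPM (adjusted p = 0.00398 by edgeR). After IC it was called lower than in both MHCII+ subsets, at 93.1 ± 23.7 against 217 ± 25.5 (MHCII+CD11c-) and 152 ± 14.5 CPM. Card9 was called only against untreated MHCII+CD11c+ macrophages, at 46.8 ± 8.73 against 23.8 ± 3.47 CPM. Clec7a, which encodes dectin-1, was at 110 ± 65.5, 206 ± 36.2 and 269 ± 124 CPM in the LYVE1+CX3CR1+, MHCII+CD11c- and MHCII+CD11c+ subsets and lower in the first than in either other, with overlapping libraries (adjusted p = 0.0448 and 0.00153 by edgeR). Tyrobp and Fcer1g, the signalling adaptors of TREM2 and of Fc receptors, passed in none of the 6 comparisons of subsets. With IC, Vsig4 rose in MHCII+CD11c+ macrophages, from 49.7 ± 16.7 to 111 ± 25.7 CPM, a log2 difference of 1.17 that passed edgeR's test. It was the 1 partner of 8 that passed there, beside 0.673% of all genes, with 4 at an unadjusted p under 0.05 and 2 called by DESeq2. In LYVE1+CX3CR1+ and MHCII+CD11c- macrophages 0 of 8 passed edgeR's test, beside 0.464% and 1.06% of all genes, with 1 and 5 at an unadjusted p under 0.05 and 1 and 2 called by DESeq2.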

How the data were processed

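The authors built stranded total RNA libraries from sorted cells, removed the first 3 bases of read 1, trimmed with Trim Galore, aligned to mm10 with HISAT2 and counted with featureCounts, per the labels and methods. The deposited values are raw counts per gene symbol. Versions, annotation and strand setting are not given in the sources used here. The joined table, equal column by column, was left out. Counts of 18 libraries (245903 to 2172358) were scaled by TMM in edgeR 4.0.16 (R 4.3.3), and filterByExpr (minimum count 10, total 15) kept 10550 genes. Subsets were compared by quasi-likelihood tests in edgeR, fitted to the 6 groups together, with Benjamini-Hochberg adjustment and a threshold of 0.05, and SE was the log2 fold change over the root of F. Intervals of counts cover counting error only. The tests were tried on simulated counts. Alternatives were DESeq2's size factors, DESeq2 1.42.0, other filters, a fit to the 6 libraries compared, the replicate block, 1 surrogate variable (sva 3.50.0) and leaving out each library. Pools share replicate numbers, and whether pools with the same number came from the same mice is not given in the sources used here. The main tests did not pair them. The members and gene lists (other Ms4a genes, partners, cell markers) were chosen with earlier results of these data known. Genes outside them are the 3 with the highest correlation with each member. Coding sequences were aligned with Biopython 1.88. Part of the promoter comparison is not reported here.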

Additional observations from a re-analysis of the deposited data

How the results depend on the processing

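The calls of Ms4a6b, Ms4a6d and Ms4a7 between LYVE1+CX3CR1+ and MHCII+CD11c+ macrophages held, under both treatments, in every alternative run. Ms4a4c could not be tested with at least 10 counts in every library, nor in the untreated fit to the 6 LYVE1+CX3CR1+ and MHCII+CD11c- libraries. Between untreated LYVE1+CX3CR1+ and MHCII+CD11c- macrophages, the call of Ms4a6d was lost with DESeq2's size factors and with any 1 library left out. It remained in the other alternatives, among them at least 10 counts in every library and the fit to only the 6 libraries compared. After IC, the call of Ms4a7 was lost with DESeq2's size factors, in the fit to only those 6 libraries and with the replicate block. It was also lost with any 1 library left out other than MHCII+CD11c- IC replicate 2, and remained in the other alternatives. Ms4a4c is not counted in either comparison, since its difference from the LYVE1+CX3CR1+ subset is given with no test. Between MHCII+CD11c+ and MHCII+CD11c- macrophages after IC, where 0 members were called, 1 was called with DESeq2's Wald test, 2 (Ms4a6b and Ms4a6d) with the replicate block, and 0 to 1 with 1 library left out. The median difference with IC in MHCII+CD11c+ macrophages ranged from 0.70 to 1.23 with 1 library left out. No member's called difference changed sign. Replicate numbers are shared, but deviations of same-numbered libraries correlated at -0.05 to 0.13 between subsets, over 0.1 in 1 of 18 pairs, where 14 correlated best with their own number, and in 0 of 9 pairs between treatments. In the replicate block fit Ms4a6c also passed between LYVE1+CX3CR1+ and MHCII+CD11c+ macrophages after IC (adjusted p = 0.0412), and Ms4a7 no longer did between LYVE1+CX3CR1+ and MHCII+CD11c- macrophages (adjusted p = 0.0576). Depth limits Ms4a4c in LYVE1+CX3CR1+ libraries and all members in the library of 245903 counts. The replicate block moved the count of calls over all genes by less than 1.5 times in each comparison. With at least 10 counts in every library, 3798 genes were tested, and the calls of LYVE1+CX3CR1+ against MHCII+CD11c- went from 1207 to 750 without treatment and from 1031 to 664 after IC, and those against MHCII+CD11c+ from 2303 to 1291 and from 2081 to 1182. Between the MHCII+ subsets, the 368 untreated calls became 581 with DESeq2, 578 with no filter, 587 with a surrogate variable, and as few as 187 with a library left out (MHCII+CD11c- replicate 3). The 300 calls after IC became 472 with DESeq2, 465 with no filter, 100 in the fit to 6 libraries and as few as 167 with a library left out (MHCII+CD11c+ IC replicate 2). That fit gave 460 of the 1031 calls after IC for LYVE1+CX3CR1+ against MHCII+CD11c-, and leaving out LYVE1+CX3CR1+ IC replicate 2 gave 609. For IC against untreated, DESeq2, no filter, a surrogate variable and the fit to 6 libraries gave 154, 160, 99 and 272 calls in place of 49 in LYVE1+CX3CR1+, 280, 337, 206 and 19 in place of 112 in MHCII+CD11c-, and 157, 250, 133 and 170 in place of 71 in MHCII+CD11c+ macrophages. With a library left out these ranged down to 13, 52 and 14, and up to 182 in MHCII+CD11c-. With the longest transcript as length, chosen after seeing the data, Ms4a6d and Ms4a6c changed order in untreated LYVE1+CX3CR1+ macrophages. The causes were not tested.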
